A study of Mus musculus with 2 samples.

Results

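The enzymes that turn progestins into androgens and oestrogens were followed in the whole ovary, together with enzymes that interconvert, hydroxylate or sulfate the products and with the theca hormone Insl3. The 10 genes were taken by symbol, and all 10 had a row among the 24421 rows of the deposited table. They were named for their role, but with earlier results of these libraries known, so their levels and ratios stand here as descriptions. RNA sequencing of ovaries compared 1 H19KO library with 1 WT library, and the study asked which ovarian genes depend on the imprinted long noncoding RNA H19. The H19KO ovaries carried the allele labelled H19(Δ3), and the WT ovaries were wild type. Both groups were C57BL/6J mice of 8 weeks without treatment, and neither the number of mice behind a library nor the stage of the oestrous cycle is given in the sources used here. No difference below has a replicate check, no p-value can be given, and each comparison describes these 2 libraries.

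Follicular steroid synthesis is divided between neighbouring cell layers. Theca cells, driven by luteinising hormone, convert cholesterol through pregnenolone and progesterone into androgens, with CYP17A1 as the enzyme that commits the product to the androgen branch. Granulosa cells, driven by follicle-stimulating hormone, take up the androgen and aromatise it with CYP19A1, and members of the HSD17B family set the balance between weak and potent forms of each hormone.

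The H19KO library held 23041225 counts and the WT library 23335131. H19 had 0 counts in the H19KO library and 672 in the WT library. A floor of 3 counts was set for a count of 0, and at that floor the H19KO level was 223-fold lower. Levels are given in CPM, the count per 1000000 counts of the TMM-scaled library, and ratios as log2 of the H19KO over the WT level with 0.5 added to the scaled counts. The interval of a ratio is its exact conditional binomial (Clopper-Pearson) 95% interval, which covers counting error only. Intervals are printed for some of the ratios. Genes averaging 1 CPM or more are called measured, and a measured gene was called beyond 2-fold where no part of its interval fell inside that limit. This is a fixed rule of size and not a test.

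H19 carries the microRNA Mir675 in its transcript, and H19 RNA has been described to bind let-7, so the sequences of these microRNAs are shown with the seed (bases 2 to 8) in capitals (RefSeq, GRCm38.p6).
mmu-miR-675-5p: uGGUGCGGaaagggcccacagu
mmu-miR-675-3p: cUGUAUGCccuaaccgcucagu
mmu-let-7a-5p: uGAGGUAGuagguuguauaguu
The complement of each seed (CCGCACC for miR-675-5p, GCATACA for miR-675-3p and CTACCTC for let-7a) was searched on the sense strand in the annotated 3' UTR of the APPRIS principal transcript of each of the 10 genes. Neither complement of the miR-675 seeds was found in any of the 10. The let-7a complement occurred 1 time, in the 82-base UTR of Hsd17b2, against 1.18% of the 594 UTRs within 20% of that length. In the 820-base UTR of Cyp19a1 none of the 3 was found, and in UTRs of similar length those for miR-675-5p, miR-675-3p and let-7a occurred in 1.39%, 3.27% and 5.84%. In the 160-base UTR of Cyp17a1 none was found either, against 0.0751%, 1.28% and 0.826% of UTRs of similar length for these microRNAs in that order. These are letters in a reference and not measured sites, and microRNA levels were not analysed here.

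Aromatase is transcribed from several starts, and the RefSeq windows around them are shown because Cyp19a1 was 1 of the 2 genes beyond 2-fold. Windows run from 250 bases before to 50 after a start on the minus strand of GRCm38.p6, and capitals mark AGGTCA, a half-site of nuclear receptors such as SF-1, on either strand.
Cyp19a1 chr9:54268115-54268414: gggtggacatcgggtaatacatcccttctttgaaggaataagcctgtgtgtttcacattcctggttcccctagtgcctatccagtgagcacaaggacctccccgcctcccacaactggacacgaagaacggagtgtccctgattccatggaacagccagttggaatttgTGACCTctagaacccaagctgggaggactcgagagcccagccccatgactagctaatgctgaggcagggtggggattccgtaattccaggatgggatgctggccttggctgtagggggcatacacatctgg
Cyp19a1 chr9:54228865-54229164: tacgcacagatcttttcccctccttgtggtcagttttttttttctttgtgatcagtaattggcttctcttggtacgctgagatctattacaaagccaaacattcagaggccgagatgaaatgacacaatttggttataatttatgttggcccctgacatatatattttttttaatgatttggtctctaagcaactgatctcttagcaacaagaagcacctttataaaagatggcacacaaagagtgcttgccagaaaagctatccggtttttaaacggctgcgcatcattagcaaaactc
Cyp19a1 chr9:54193694-54193993: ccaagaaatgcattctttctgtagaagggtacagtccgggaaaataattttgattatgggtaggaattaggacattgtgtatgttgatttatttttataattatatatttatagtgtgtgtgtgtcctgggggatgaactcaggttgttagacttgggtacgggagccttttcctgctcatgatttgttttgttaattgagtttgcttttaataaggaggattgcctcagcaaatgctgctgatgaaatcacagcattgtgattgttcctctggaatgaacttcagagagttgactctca
In these 3 windows AGGTCA was found 1 time, on the opposite strand of the window farthest upstream, at position -81 from the start. It occurs in 16.3% of the 32851 windows of the same length. This share and those below are per window, while 3 windows of Cyp19a1 were searched. The window of Sult1e1, a gene with almost no counts here, also held AGGTCA, on the opposite strand at -113. The longer form CAAGGTCA, which contains it, and the cyclic AMP element TGACGTCA were found in none of the 3 windows, and occur in 1.56% and 1.79% of all windows. TATAAA stood at position -29 of the middle window, with a match to its opposite strand overlapping it at -31, and on the opposite strand of the third window at -157 and -143. It occurs in 13.6% of all windows. The counts add up all starts of a gene, so they do not say which of them was used.

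Of the 10 genes, 7 averaged 1 CPM or more in these ovaries. Cyp17a1 and Cyp19a1 were lower in the H19KO library by more than 2-fold, while the 5 other measured genes lay between log2 ratios of -0.27 and 0.32. Over all 13928 measured genes, 0.998% lay beyond 2-fold in either direction, 0.388% on the lower side and 0.610% on the higher side, where none of the 10 genes lay. The 10 genes were chosen with these ratios known, so nothing is read from the difference in shares. The median log2 ratio of the 7 genes was -0.21, beside -0.01 for all measured genes, whose central 95% spanned -0.67 to 0.79. In whole ovaries, fewer cells of a type and less RNA per cell cannot be told apart.

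**Figure D1:**
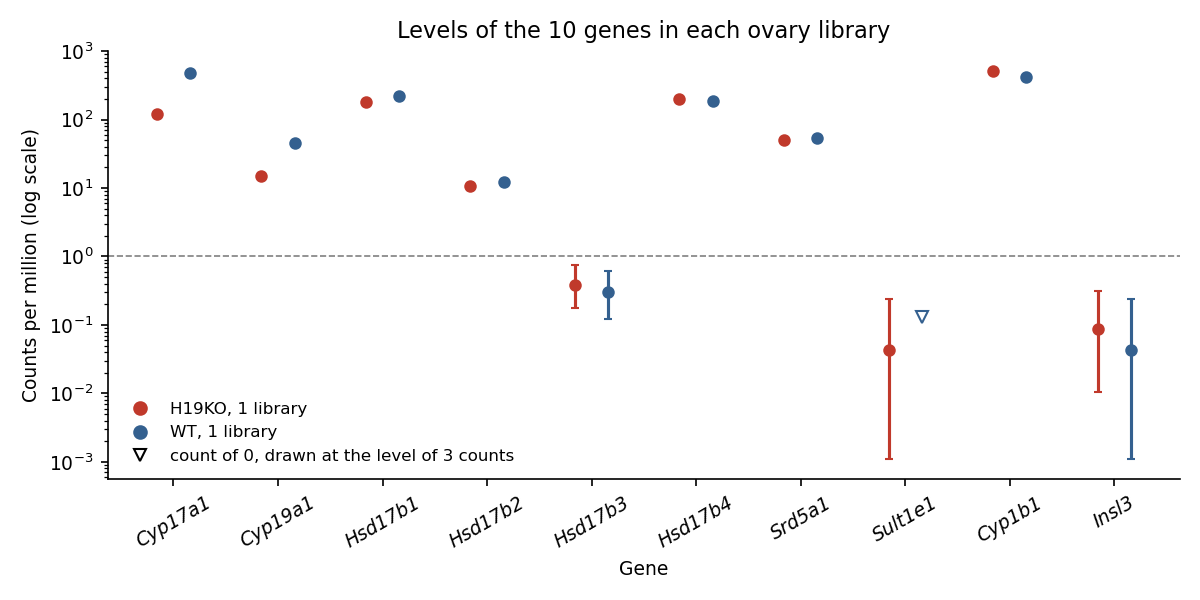
CPM of the 10 genes on a log axis, with the H19KO library left of the WT library for each gene; bars are exact Poisson 95% intervals of the count, and the dashed line marks 1 CPM. Cyp17a1 had 123 CPM in the H19KO library and 484 in the WT library, Cyp19a1 had 14.9 CPM in the H19KO library and 45.2 in the WT library, and Hsd17b3, Sult1e1 and Insl3 lay below 1 CPM in both.

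Cyp17a1 (ENSMUSG00000003555.8, mm10 chromosome 19, 46667165 to 46673172, minus strand), the enzyme that opens the androgen branch in theca cells, had 2834 counts in the H19KO library, against 11243 in the WT library. These counts correspond to 123 CPM in the H19KO library and 484 CPM in the WT library. The log2 ratio was -1.98 (-2.04 to -1.92), a level 3.94-fold lower in the H19KO library. Of the 13928 measured genes, 22 had a lower ratio. Among the 2556 genes averaging 100 CPM or more, 1 had a lower ratio than Cyp17a1, the ribosomal protein gene Rpl29, named after its value was seen.

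Cyp11a1 and Hsd3b1, genes of the steps just before CYP17A1, had ratios of H19KO over WT near 1. Both are also among the luteal markers below, and a whole ovary adds up all its cells. Their rows therefore do not give the theca level of these steps. The H19KO library had 29.7 Cyp17a1 counts per 1000 counts of Cyp11a1, the side-chain cleavage enzyme that starts steroid synthesis, and the WT library had 116. Per 1000 counts of Hsd3b1, which makes progesterone from pregnenolone, the H19KO library had 15.2 Cyp17a1 counts and the WT library 57.6. Per 1000 counts of the luteinising hormone receptor gene Lhcgr, itself lower in the H19KO library, the values were 262 in the H19KO library and 725 in the WT library. Relative to each of these 3 genes, Cyp17a1 was thus lower in the H19KO library than in the WT library. These quotients come from the same counts as the ratios and are not a separate observation.

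Insl3 (chromosome 8, 71689214 to 71690575, plus strand), a relaxin-like peptide hormone known from theca and Leydig cells, had 2 counts in the H19KO library and 1 in the WT library. Both lay below the floor of 3 counts, so no ratio is given. Insl3 lies inside Jak3 on the same strand, and 404 of its 623 exonic bases, 64.8%, are also annotated as Jak3 exon. Jak3, a leukocyte kinase gene, had 168 counts in the H19KO library and 193 in the WT library. The labels do not say how reads in shared exons were counted, and the Insl3 row therefore gives no level of the hormone's RNA.

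Cyp19a1 (ENSMUSG00000032274.9, chromosome 9, 54165937 to 54268110, minus strand), which encodes aromatase, had 345 counts in the H19KO library, against 1052 in the WT library. The levels were 14.9 CPM in the H19KO library and 45.2 CPM in the WT library. The log2 ratio was -1.60 (-1.78 to -1.42), a level 3.03-fold lower in the H19KO library, and 38 of the 13928 measured genes had a lower ratio. Its interval, which covers counting error only, did not overlap that of Cyp17a1. Per 1000 counts of the follicle-stimulating hormone receptor gene Fshr, there were 548 Cyp19a1 counts in the H19KO library and 1159 in the WT library. Per 1000 counts of the inhibin subunit gene Inha, there were 17.6 in the H19KO library and 37.9 in the WT library. Aromatase RNA was thus lower also relative to these granulosa genes, whose own log2 ratios were -0.52 for Fshr and -0.50 for Inha.

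Hsd17b1 (chromosome 11, 101078411 to 101080527, plus strand), the granulosa enzyme that reduces oestrone to oestradiol, had 4218 counts in the H19KO library and 5098 in the WT library, or 182 CPM in the H19KO library and 219 CPM in the WT library. The log2 ratio was -0.27 (-0.32 to -0.21), within 2-fold. There were 81.8 Cyp19a1 counts per 1000 Hsd17b1 counts in the H19KO library and 206 in the WT library, so the oestrogen-forming pair of granulosa enzymes did not differ by the same factor.

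The other HSD17B genes of the set showed smaller differences or too few counts. Hsd17b2 (chromosome 8, 117701904 to 117759027, plus strand), which oxidises oestradiol and testosterone to their weaker forms, had 245 counts in the H19KO library and 285 in the WT library. Its log2 ratio of -0.21 had an interval spanning 0 (-0.46 to 0.04). Hsd17b4 (chromosome 18, 50128201 to 50196269, plus strand), a peroxisomal enzyme that also acts in the oxidation of fatty acids, had 4616 counts in the H19KO library and 4371 in the WT library. Its log2 ratio was 0.09 (0.03 to 0.15), a level 6.19% higher in the H19KO library. Hsd17b3, known as the testosterone-forming enzyme of Leydig cells, had 9 counts in the H19KO library and 7 in the WT library, below the minimum of 1 CPM, and its log2 ratio of 0.35 (-1.22 to 2.03) was not resolved at this depth.

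Srd5a1 (chromosome 13, 69573449 to 69611442, minus strand), the steroid reductase that makes dihydrotestosterone from testosterone, had 1178 counts in the H19KO library and 1265 in the WT library. Its log2 ratio was -0.09 (-0.21 to 0.02). Of its exonic bases, 16.4% are shared with the same-strand gene Gm17108, so part of its reads could belong there. Sult1e1, the oestrogen sulfotransferase that inactivates oestrogens, had 1 count in the H19KO library and 0 in the WT library, where the floor of 3 counts corresponds to 0.129 CPM. A difference in Sult1e1 was not detectable at this depth.

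Cyp1b1 (chromosome 17, 79701537 to 79715061, minus strand), which hydroxylates oestrogens to catechol forms, had the highest CPM of the 10 genes in the H19KO library and stood below Cyp17a1 in the WT library. It had 11969 counts in the H19KO library and 9623 in the WT library, or 518 CPM in the H19KO library and 414 CPM in the WT library. The log2 ratio was 0.32 (0.28 to 0.36), a level 25.1% higher in the H19KO library, and 1564 measured genes had a higher ratio. Cyp1b1 and Hsd17b4 were the 2 genes of the set with an interval above 0, as 22.2% of all measured genes had, and Cyp17a1, Cyp19a1 and Hsd17b1 the 3 with an interval below 0, as 24.0% of all had.

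**Figure D2:**
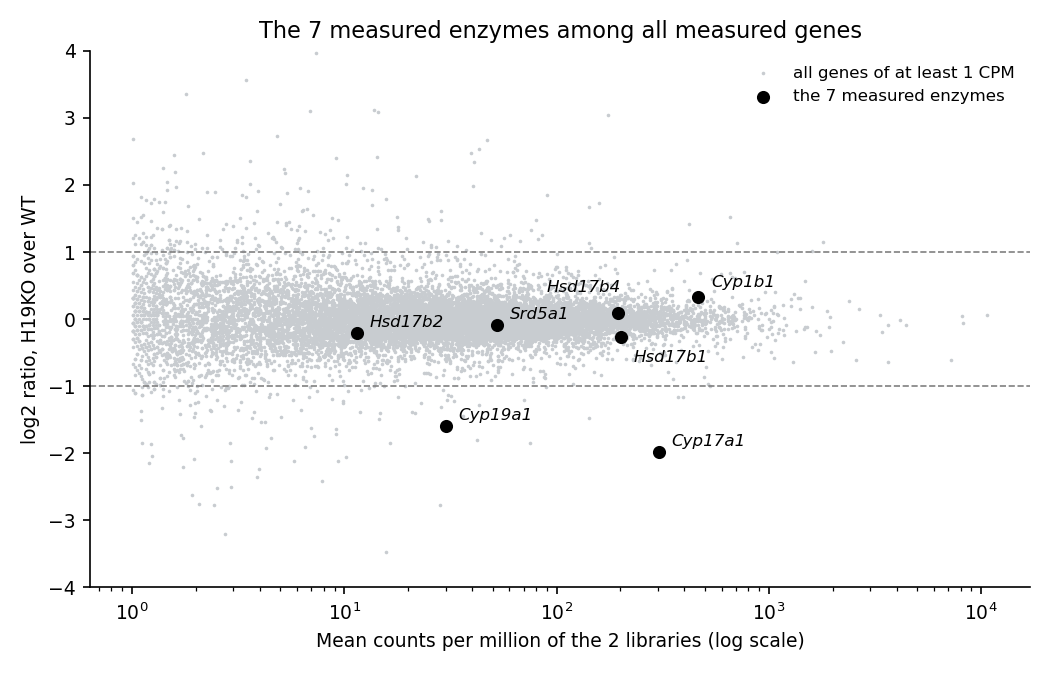
Log2 ratio of H19KO over WT against the mean of the 2 libraries in CPM on a log axis, with the 7 measured enzymes in black, all genes of at least 1 CPM in grey and dashed lines at 2-fold; 5 genes lie outside the axis limits. Cyp17a1 at -1.98 and Cyp19a1 at -1.60 lie below the lower dashed line, with 22 and 38 measured genes at lower ratios, and the 5 other enzymes lie between the dashed lines.

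Levels between genes were compared per kilobase of merged annotated exon. In the H19KO library the order from the highest was Hsd17b1 at 136 CPM per kilobase, Cyp1b1 at 88.6, Hsd17b4 at 58.6, Cyp17a1 at 44.3, Srd5a1 at 17.5, Hsd17b2 at 5.51 and Cyp19a1 at 3.30. In the WT library it was Cyp17a1 at 175 CPM per kilobase, Hsd17b1 at 164, Cyp1b1 at 70.9, Hsd17b4 at 55.2, Srd5a1 at 18.7, Cyp19a1 at 10.01 and Hsd17b2 at 6.37. Cyp17a1 thus stood at rank 4 in the H19KO library and rank 1 in the WT library, and Cyp19a1 stood last of the 7 in the H19KO library and above Hsd17b2 in the WT library. With 1 library of each genotype, no spread is available to say which neighbours in these orders differ. With lengths of the APPRIS principal transcript, a choice made after seeing the data, the 7 genes kept the same ranks in both libraries, and Cyp17a1 had 67.5 CPM per kilobase in the H19KO library and 266 in the WT library.

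**Figure D3:**
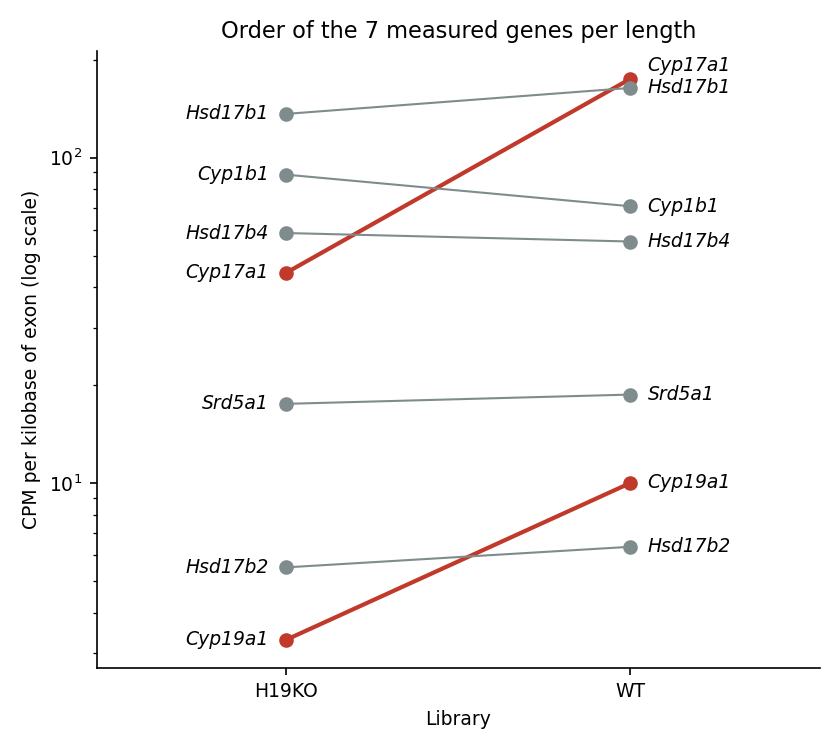
CPM per kilobase of merged exon on a log axis for the 7 measured genes in the H19KO library on the left and the WT library on the right; red lines mark the 2 genes beyond 2-fold. The lines of Cyp17a1 and Cyp19a1 cross those of other genes, with Cyp17a1 at 44.3 in the H19KO library and 175 in the WT library, and the lines of the other 5 keep their order among themselves.

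The rest of the pathway was read from 56 other genes, of which 54 had a row and 43 reached 1 CPM. The intervals lay below 0 for 25 of the 43, above 0 for 11 and across 0 for 7, and 1 gene lay beyond 2-fold, on the lower side. Over all measured genes, 24.0% had intervals below 0, 22.2% above 0, and 0.388% lay beyond 2-fold on the lower side. The median log2 ratio of the 43 genes was -0.12, beside -0.01 for all measured genes. Intervals are narrower at higher counts, and the lists were chosen with earlier results known, so nothing is read from the differences in shares.

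The first steps of steroid synthesis had a median log2 ratio of 0.05, with 3 of 8 measured genes above 0, 4 below and none beyond 2-fold. Their ratios ranged from Stard3 at -0.25 (-0.41 to -0.08) to Tspo at 0.74 (0.50 to 0.98), both named after their values were seen. Star, which moves cholesterol into mitochondria, had 45413 counts in the H19KO library and 42202 in the WT library, a log2 ratio of 0.11. Cyp11a1 had 95277 counts in the H19KO library and 97106 in the WT library (-0.02), and Hsd3b1 had -0.06. The electron donor adrenodoxin, Fdx1, which feeds CYP11A1, had -0.09. Genes for electron transfer to CYP17A1 and CYP19A1 differed in both directions. Por, the reductase that both enzymes need, had 4665 counts in the H19KO library and 3899 in the WT library, a log2 ratio of 0.27 (0.21 to 0.33). Cyb5a, which favours the androgen-forming activity of CYP17A1, had 7763 counts in the H19KO library and 8977 in the WT library, -0.20 (-0.25 to -0.16). Cyb5b had 0.11 and Cyb5r3 -0.05.

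Among the other HSD17B genes, 3 of 4 measured had an interval below 0 and 1 above it. Hsd17b7, which serves oestradiol and cholesterol synthesis and is abundant in luteal tissue, came nearest to 2-fold, with 8094 counts in the H19KO library and 15971 in the WT library and a log2 ratio of -0.97 (-1.01 to -0.93). Hsd17b11 had 0.60 (0.45 to 0.76), Hsd17b10 -0.13 and Hsd17b12 -0.12. Of the other steroid reductases, Akr1c18, which inactivates progesterone, had 1229 counts in the H19KO library and 2378 in the WT library, a log2 ratio of -0.94 (-1.04 to -0.84). Akr1c14, which reduces dihydrotestosterone further, had -0.23 (-0.28 to -0.19), while Srd5a2 and Srd5a3 had intervals spanning 0. In the group of sulfation, hydroxylation and methylation, 4 of 5 measured genes had intervals spanning 0, among them Papss1 and Papss2, which make the sulfate donor. The remaining gene was the phenol sulfotransferase Sult1a1 at 0.23 (0.02 to 0.43), and the oestrogen hydroxylases Cyp1a1 and Cyp1a2 had 0 counts in both libraries.

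Of 17 measured receptors and regulators of these enzymes, 14 had an interval below 0, beside 24.0% of all measured genes, and 3 above it, beside 22.2%. Their median log2 ratio was -0.51, beside -0.01 for all measured genes. Intervals are narrower at higher counts, and the list was chosen with earlier results known, so nothing is read from the difference in shares. Beyond 2-fold was Ihh, the hedgehog ligand by which granulosa cells act on theca, with 454 counts in the H19KO library and 1070 in the WT library, a log2 ratio of -1.23 (-1.39 to -1.07). Lhcgr had 10830 counts in the H19KO library and 15503 in the WT library, -0.51 (-0.55 to -0.47). Nr5a1, which encodes SF-1, an activator of Cyp17a1 and Cyp19a1, had 4213 counts in the H19KO library and 6428 in the WT library, -0.60 (-0.66 to -0.55). Its relative Nr5a2 had 0.04 (0.01 to 0.07). The pathway genes Gata4, Gata6, Nr4a1 and Fshr, named after their values were seen, had -0.51, -0.57, -0.82 and -0.52. The 3 genes with an interval above 0 were Nr5a2, Esr1 at 0.30 (0.21 to 0.39) and Nr0b1 at 0.27 (0.02 to 0.52).

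**Figure D4:**
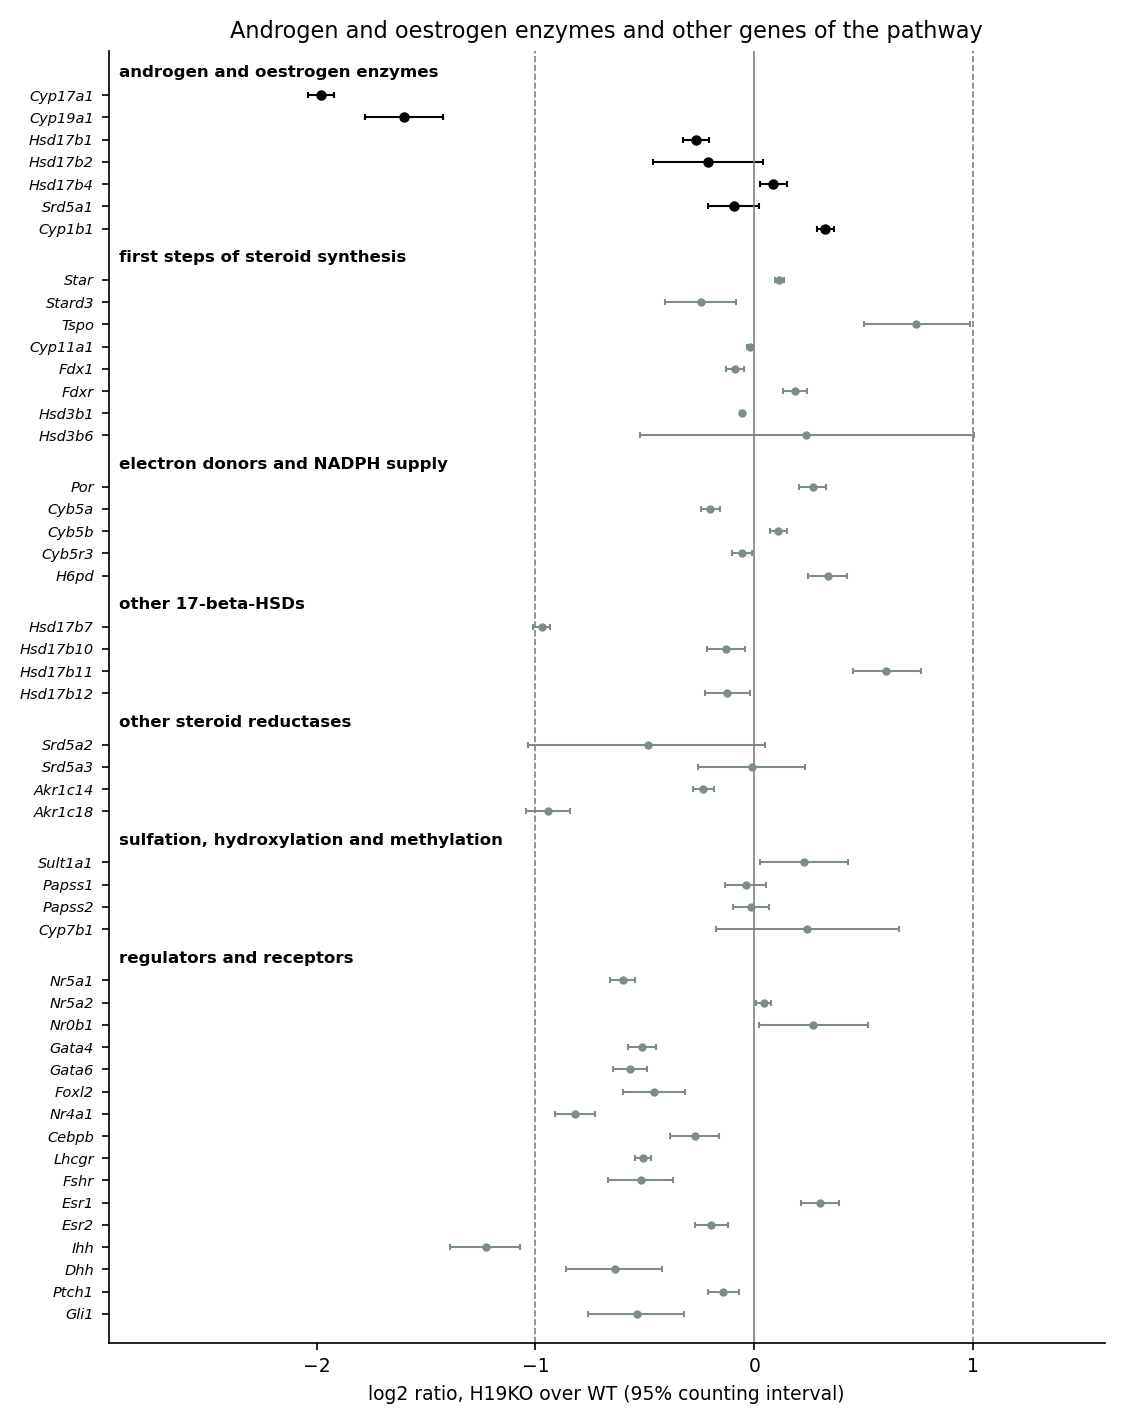
Log2 ratio of H19KO over WT with its 95% counting interval for the 7 measured enzymes in black and other measured genes of the pathway in grey, grouped by role; dashed lines mark 2-fold. Cyp17a1 and Cyp19a1 lie left of the lower dashed line, as does Ihh, and most regulators and receptors lie below 0. The first steps of steroid synthesis lie between -0.25 for Stard3 and 0.74 for Tspo.

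Markers of ovarian cell types differed between the libraries too, some lists on the side of Cyp17a1 and Cyp19a1 and others on the opposite side, and their part in the results was not tested. The theca, granulosa and luteal lists share genes with the pathway lists above, such as Lhcgr, Fshr, Ihh and Star. They are therefore not separate observations from those lists. Theca and interstitial markers, 11 measured of 11, had a median log2 ratio of -0.28, with 6 intervals below 0, 2 above and 3 spanning it. Their summed level was 4956 CPM in the H19KO library and 4642 CPM in the WT library, so the sum was higher in the H19KO library while the median was below 0. The most abundant were Aldh1a1 at 0.27 and Ephx2 at -0.28, the highest ratio was that of Mgarp at 0.68, named after its value was seen, and none was at 0. The log2 ratio of Cyp17a1 minus that median was -1.70, and the ratio was below those of all 11 markers. Granulosa markers, 18 measured of 18, had a median of -0.31, with 13 intervals below 0, 2 above and 3 spanning it. Their summed level was 5201 CPM in the H19KO library and 6556 CPM in the WT library, with Gja1 at -0.35 and Inha at -0.50 the most abundant and none at 0. The log2 ratio of Cyp19a1 minus that median was -1.29, and it lay below all 18 markers, Ihh included. Hsd17b1 lay 0.05 above it, with 10 of the 18 markers lower.

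Markers of other cell types differed in both directions. Luteal markers, 9 of 9 measured, had a median log2 ratio of -0.18, with 7 intervals below 0 and 2 above, and summed to 17634 CPM in the H19KO library and 19049 CPM in the WT library. Oocyte markers, 12 of 12, had -0.31 (379 CPM in the H19KO library and 468 CPM in the WT library), with 7 intervals below 0 and 5 spanning it; the most abundant were Padi6 at -0.40 and Zp2 at -0.36. Endothelial markers, 7 of 7, had -0.18 (582 CPM in the H19KO library and 660.3 CPM in the WT library), with 4 intervals below 0, 1 above and 2 spanning it; the most abundant were Cdh5 at -0.27 and Kdr at -0.18. These 3 lists thus had medians below 0, on the side of Cyp17a1 and Cyp19a1, while stromal fibroblast, smooth muscle and leukocyte markers had medians above 0. Stromal fibroblast markers were higher, with 9 of 9 intervals above 0, a median of 0.45 and 3985 CPM in the H19KO library against 2835 CPM in the WT library; Col3a1 had 0.56 and Dcn 0.63. Smooth muscle markers had 6 of 6 intervals above 0 and a median of 0.29 (1771 CPM in the H19KO library and 1418 CPM in the WT library), with Acta2 at 0.16 and Myh11 at 0.60. Leukocyte markers, 6 measured of 8, had a median of 0.32 (701 CPM in the H19KO library and 551 CPM in the WT library), with 5 intervals above 0 and 1 below; the most abundant were Cd74 at 0.38 and Lyz2 at 0.54.

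Of the markers of neighbouring tissues and blood, most had few or no counts. Of 6 adrenal cortex markers 2 were measured, Mrap at 0.51 and Cyp11b1 beyond 2-fold at 6.14. Cyp11b1 had 945 counts in the H19KO library and 13 in the WT library, the highest ratio of all measured genes. Of the 4 below the minimum, the defining adrenal gene Cyp21a1 had 6 counts in the H19KO library and 2 in the WT library. Akr1b7 had 36 in the H19KO library and 9 in the WT library, Cyp11b2 had 1 and 0, and Mc2r 1 and 3. The list summed to 254 CPM in the H19KO library and 149 CPM in the WT library. Most of this sum was Mrap, with 211 CPM in the H19KO library and 148 CPM in the WT library. Cyp11b1 had 40.9 CPM in the H19KO library and 0.559 CPM in the WT library. Of 6 oviduct and uterus markers 2 were measured, Krt7 at 0.13 and Ovgp1 beyond 2-fold at 2.01, summing to 21.8 CPM in the H19KO library and 16.3 CPM in the WT library, with Hoxa11 at 0 in both. Of 6 adipocyte markers 2 were measured, Fabp4 at 0.57 and Plin1 at -0.42, summing to 15.6 CPM in the H19KO library and 18.1 CPM in the WT library, with Lep and Retn at 0 in the H19KO library. Of 5 red blood cell markers only Alas2 was measured, with 44 counts in the H19KO library and 89 in the WT library. The list sum was 1.90 CPM in the H19KO library and 3.83 CPM in the WT library. The 4 globin rows were at 0 in both libraries. Why they were at 0 was not tested, and they are not read as a level of blood.

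**Figure D5:**
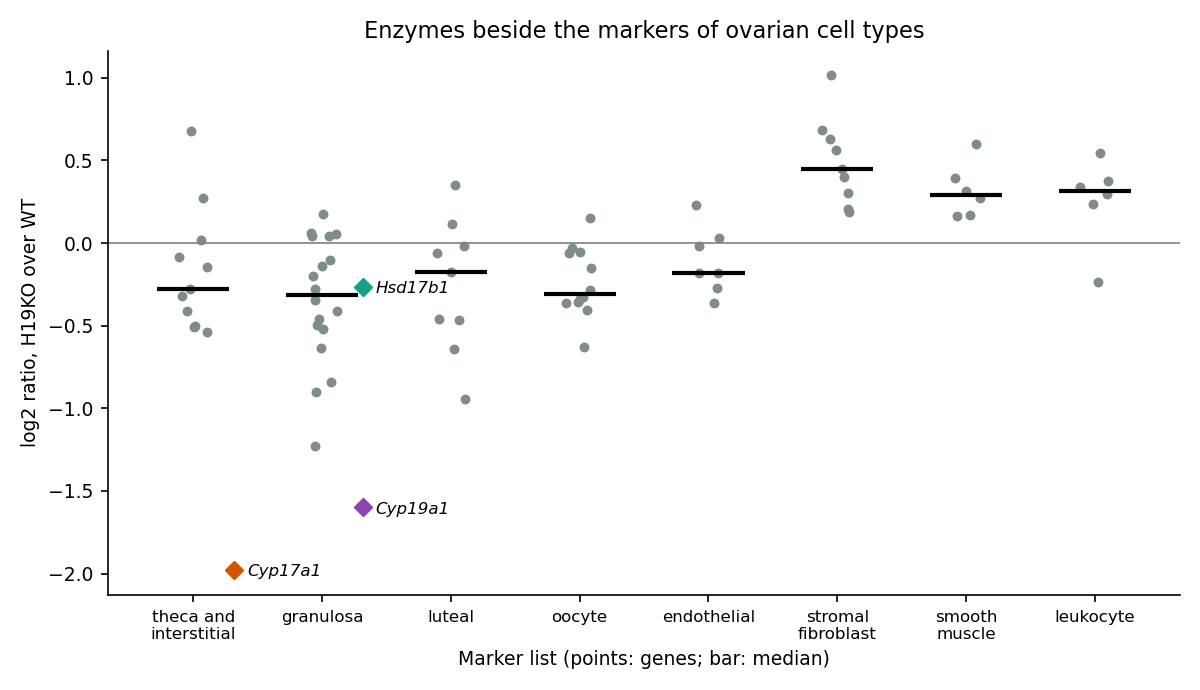
Log2 ratio of H19KO over WT for each measured gene of 8 marker lists (grey points; black bars are medians), with Cyp17a1 beside the theca and interstitial list and Cyp19a1 and Hsd17b1 beside the granulosa list. Cyp17a1 at -1.98 and Cyp19a1 at -1.60 lie below every plotted marker, and Hsd17b1 at -0.27 lies among the granulosa markers.

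The genes most like the 2 enzymes beyond 2-fold were found by the distance in log2 ratio over these 2 libraries, among 10301 other genes averaging 10 CPM or more. Nearest to Cyp17a1 were Amdhd1, with 91 counts in the H19KO library and 384 in the WT library (-2.06), Rnf152 (-1.85) and Grik3 (-1.84). Nearest to Cyp19a1 were Rasgrp1, with 177 counts in the H19KO library and 500 in the WT library (-1.49), Sema3d (-1.47) and Basp1 (-1.44). A likeness over 2 libraries is a single ratio, and the nearest of the 6, Amdhd1, lay 0.0832 log2 units from Cyp17a1.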

How the data were processed

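The authors deposited whole-number counts per gene symbol for 1 H19KO and 1 WT library. Stranded paired-end libraries were made after removal of ribosomal RNA, per the labels' protocols. The submitters' processing notes name mm10, DESeq2 1.0.0, Cufflinks 2.2.1 and STAR 2.5.0a, without roles. Which annotation and strand setting were counted is not given in the sources used here. Median-of-ratios factors of the libraries were equal, so scaling by the authors before rounding was considered. Whole reads scaled up would leave gaps, and the lowest absent count was 937 in the H19KO and 527 in the WT library; scaling of fractional counts would leave none, so the table does not settle this.

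Libraries were scaled by TMM (edgeR 4.0.16), alternatively by DESeq2 1.42.0. Coordinates and exon lengths came from GENCODE M21 (mm10), which held 23350 of the 24421 symbols; 27 rows with dates as names stayed in the totals. RefSeq windows were found for 6 of the 10 genes. Scalings, added counts, filters, size limits and marker summaries were varied. Intervals and calls were run on simulated Poisson counts with known ratios. These counts hold no spread between mice, so the run says nothing about that spread. The genes and lists were chosen with earlier results of these data known. Named genes were the 10, H19, the most abundant of each list (up to 4, or 2 for markers), those beyond 2-fold, and the 3 nearest in ratio. Single values of some pathway genes are not reported here. Python 3.11.15, scipy 1.17.1 and R 4.3.3 were used.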

Additional observations from a re-analysis of the deposited data

How the results depend on the processing

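All 32 ratios of the 8 genes with a ratio, under total count scaling, median-of-ratios scaling, library sizes without the 10 most abundant genes and 5 added to each count, stayed inside their counting intervals and kept their direction. The H19 ratio at the floor moved by less than its counting error under the 3 other scalings, which shifted the median of all genes by at most 0.01. Of the 10 genes, 2 were called lower under each alternative except the 4-fold limit, where 0 were. Over all genes, 54 were lower and 85 higher; ignoring the interval gave 123 lower and 206 higher. A limit of 1.5-fold gave 168 lower and 251 higher, and one of 4-fold gave 7 lower and 16 higher. These rules are looser or stricter by construction, and a minimum of 5 CPM, which leaves fewer genes, gave 34 lower. Cyp17a1 lay -1.81 log2 units from the mean of the theca and interstitial markers and -1.77 from their median at 10 CPM or more, against -1.70 in the main setting; the other relative values stayed within counting error. No paired analysis was possible because only 1 library stood for each genotype, and no replicate could be left out. Depth limits genes near 1 CPM: intervals had a median width of 1.53 log2 units between 1 and 2 CPM and of 0.130 above 100 CPM.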
